A study of Mus musculus with 4 samples.

Results

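Brain was compared with limb in mouse embryos in which Rest had been ablated in both tissues. The comparison rests on 2 of the 4 arrays of the study, CKO (Rest conditional knockout) brain against CKO limb, and the matching pair from wild type (WT) embryos shows which differences were already there with Rest intact. Every sample was taken at E13.5 (embryonic day) from embryos of mixed 129 and C57BL/6 background. Doxycycline, given from E8.5 to E13.5, switched on Cre recombinase in Rest-floxed mice in utero, and the labels record this treatment for the WT samples too. Neither the promoter behind the inducible Cre, nor the part of Rest between the loxP sites, nor whether an RNA sample came from 1 embryo or a pool is given in the sources used here. Total RNA was labelled with Cy3 and hybridised to single-colour Agilent arrays, with 1 array a group, so no difference below carries a replicate error or a test between tissues. Of the 27629 genes or unnamed transcripts on the array, 19705 could be compared between CKO brain and CKO limb, because the scanner software called them well above background on at least 1 of those arrays. The same was true of 18435 genes for the WT pair, and 18156 genes could be compared in both.

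REST, also called NRSF, is a zinc finger repressor that binds a long DNA element, RE1, near many genes used by neurons. With its corepressors RCOR1, SIN3A and the histone deacetylases it keeps those genes low outside the nervous system, and its own level falls as neural progenitors become neurons. Its known targets are mostly genes that many neurons share, such as secretory granule proteins, synaptic vesicle proteins, ion channels and stathmins, while the factors that pattern brain regions or the limb are largely under other regulators.

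All levels are log2 signals with the array's 75th percentile set to 0, and a difference is brain minus limb on that scale unless stated. Where a gene was dim on 1 array of a pair, its fold is a lower bound and is written "at least". Levels of different genes come from different probes and are not compared with each other. The share of spots well above background lay between 62.7% and 70.7% over the 4 arrays. Among 245 probes printed 10 times, the brain minus limb difference of single spots had a median SD of 0.085 in CKO, over the 183 probes detected on both arrays, and its 95th percentile was 0.32. That error covers the printing and scanning alone, so it is a floor under the true error. In whole tissue, fewer cells of a type and less RNA per cell cannot be told apart.

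Rest itself was low on both CKO arrays and still higher in limb than in brain. Its 3 probes lie on chromosome 5 of mm9. The first, at chr5:77709928-77709987, stood at 2.41 in WT limb and -1.56 in CKO limb, against -0.16 in WT brain and -3.73 in CKO brain. By this probe the CKO limb held 6.38% of the WT limb signal and the CKO brain 8.39% of the WT brain signal. A second, at chr5:77711857-77711916, was not well above background in CKO brain, and the last, at chr5:77715162-77715221, kept 24.8% of its WT signal in limb and 53.3% in brain. Limb exceeded brain 5.92-fold in WT and 4.50-fold in CKO by the first probe, and 5.35-fold in WT and 2.50-fold in CKO by the last. The probes can be set against no deleted exon here, so which of them reads the ablated part is not known.

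Most of what separates brain from limb was present without Rest. At least 2-fold higher in CKO brain were 2982 of 19705 genes (15.1%), and 3325 (16.9%) were at least 2-fold higher in CKO limb. The WT pair gave 2916 of 18435 genes (15.8%) higher in brain and 3475 (18.9%) higher in limb. In either direction the share was 32% in CKO and 34.7% in WT. Over the 15631 genes measured on all 4 arrays, the CKO difference followed the WT difference with a Pearson r of 0.949, a description across genes that share arrays within each pair and are not independent. For 96.7% of them the CKO and WT differences lay within 2-fold of each other. Called the same way in both pairs were 2475 genes higher in brain (13.6% of the 18156) and 2761 higher in limb (15.2%).

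Very large differences were fewer in CKO, above all on the brain side. Past 16-fold there were 274 genes in CKO brain against 391 in WT brain, and 262 in CKO limb against 328 in WT limb. Past 64-fold there were 62 against 103 in brain and 78 against 84 in limb. Of 1338 genes at least 4-fold higher in WT brain, 1255 (93.8%) were still at least 2-fold higher in CKO brain, and of 1457 at least 4-fold higher in WT limb, 1394 were still called in CKO limb. Lower bounds rest on how dim an array can be read, so these counts are of bounds and measured values together.

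**Figure D1:**
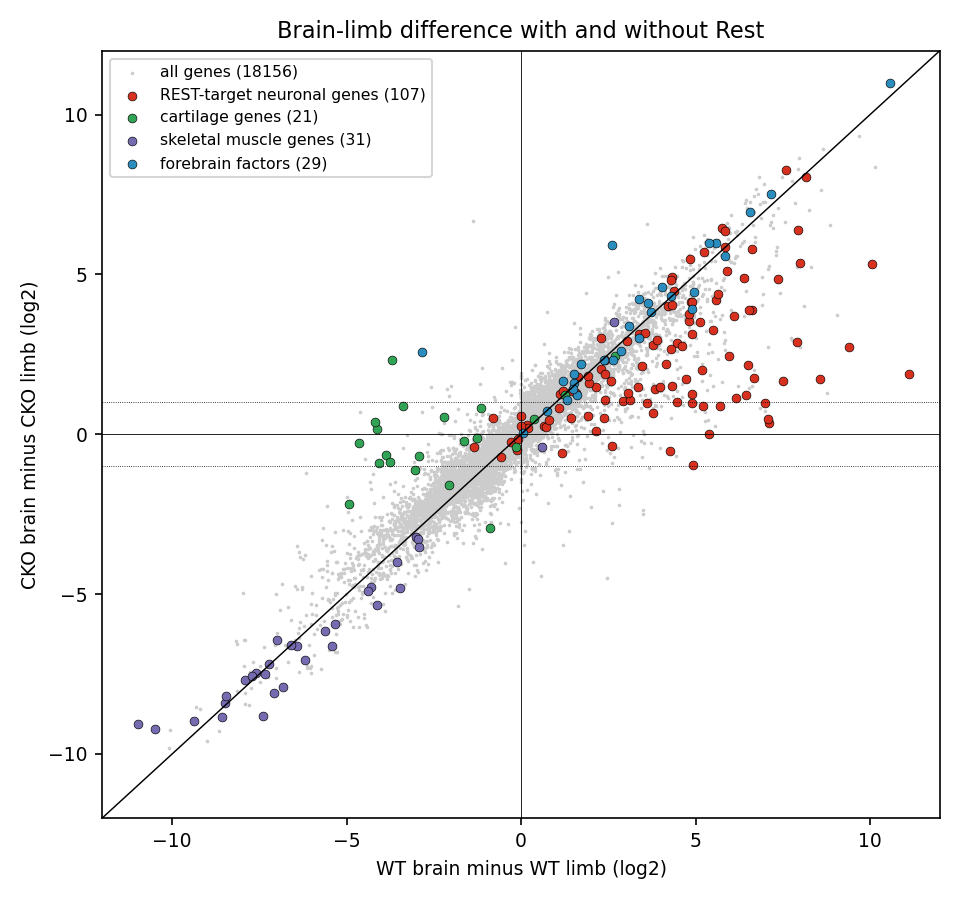
Each point is a gene compared in both pairs, with the WT brain minus limb difference on the x axis and the CKO difference on the y axis (both log2, bounds included), and the solid line marks equal differences. Dotted lines mark 2-fold in CKO; REST-target neuronal genes (red) lie below the line at the right, cartilage genes (green) above it at the left, and most muscle genes and forebrain factors lie near it, with 8 of 31 muscle genes and 2 of 29 forebrain factors (Six3 and Dmrta2) at least 2-fold off.

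The largest brain-side differences in CKO were in neuronal genes whose brain levels were close to WT. Slc32a1, the vesicular GABA transporter, showed the largest measured difference, 638-fold, with 4.65 in CKO brain and -4.67 in CKO limb. Neurod2, a factor of excitatory cortical neurons, was 267-fold higher in CKO brain, Mapt, the tau protein of axonal microtubules, 263-fold, and Gpm6a, a neuronal membrane glycoprotein, 241-fold. Tmem130 (326-fold), Rufy3 (151-fold), Lhx1 (136-fold), its antisense neighbour Lhx1os (202-fold), the endoplasmic reticulum protein gene Rtn1 (130-fold) and the transcript CJ237737 (154-fold) made up the rest of the 10 largest. Lhx1 and Lhx1os overlap or lie side by side, so their signals may not be independent.

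Most regional and transmitter genes called in WT kept their call in CKO. Of 29 detected forebrain factors, 27 were at least 2-fold higher in CKO brain and none in limb, with a median difference of 3.40 against 3.11 in WT. The median of all genes was -0.01 in CKO and -0.0016 in WT. Nr2e1, which maintains neural stem cells, was at least 182-fold higher, and Tbr1, a factor of early cortical neurons, at least 125-fold. Of 24 glutamatergic and GABAergic genes, 22 were called in brain in CKO and 22 in WT, with medians of 3.66 and 3.80. Gad1, an enzyme that makes GABA, was at least 153-fold higher in CKO brain. Of the 24, the difference shifted at least 2-fold toward limb in 4 and toward brain in 2, against 2.84% and 2.72% of all genes. Among the 4, Slc17a6 went from at least 171-fold in WT to 21.6-fold in CKO, and Sst from 14.7-fold to 4.44-fold. Among 25 genes of the progenitor and radial glia list, 16 were higher in CKO brain and 1 in limb, with Pax6 at least 134-fold and Sox2 at least 148-fold. Neurod6, a neuronal factor also in that list, was at least 317-fold higher in CKO brain. En2, a factor of the midbrain-hindbrain region, differed 79.8-fold in CKO and 70.6-fold in WT. Of the detected midbrain and hindbrain factors, 16 of 28 were called in brain in CKO and 10 of 24 in WT. None was called in limb in CKO and 2 were in WT. Of the monoaminergic and cholinergic genes, 12 of 18 were called in brain in CKO and 14 of 19 in WT, with 1 in limb in each.

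On the limb side muscle and skin genes gave the largest measured differences. Krt15 and Krt5, keratins of the basal epidermis, were 895-fold and 613-fold higher in CKO limb. Myh3, the embryonic myosin heavy chain, was 600-fold higher, with 6.16 in CKO limb and -3.07 in CKO brain. Myl1, Tnnc2, Tnnt2, Myl3, Mybph, Myog and Tnni1, all of muscle, followed at 532-fold, 503-fold, 461-fold, 390-fold, 351-fold, 339-fold and 292-fold. Hoxd13, which patterns the digits, and Tbx5, which starts the forelimb, were not well above background on either brain array and stood at least 769-fold and 625-fold higher in CKO limb. Of 32 skeletal muscle genes, 29 were called in CKO limb, with a median of -6.62 in CKO and -6.59 in WT. Of the 32 limb patterning factors, 25 were called in limb and 4 in brain, and of 29 tendon and connective tissue genes, 26 in limb.

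REST-target neuronal genes were a different case. Of the 117 listed, 115 were matched on the array and 111 were detected in CKO, where 75 were at least 2-fold higher in brain and none in limb. In WT 94 of 108 were higher in brain and 1 in limb. The median difference was 4.32 (20-fold) in WT and 1.72 (3.29-fold) in CKO, so these genes as a list still separated brain from limb but by much less. Among the 107 compared in both pairs, the difference was at least 2-fold smaller or more limb-ward in CKO for 58, against 515 (2.84%) of all genes compared, and more brain-ward for 1, against 493 (2.72%). The change lay on the limb side of the comparison: of these 107 genes, 59 were at least 2-fold higher in CKO limb than in WT limb and 1 lower, while in brain 1 was higher and 1 lower. Over all 18156 genes, 2.17% were higher and 1.33% lower in CKO limb, and 1.05% higher and 0.622% lower in CKO brain. The gene lists were chosen with earlier results of these data known, so their contrasts with all genes, here and below, are description alone.

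Separation by these genes was lost, by the rule of at least 4-fold in WT and under 2-fold in CKO with both arrays read, for 15 of the 107. Over all genes the rule gave 71 (0.391%). With both arrays of each pair required above background, 8 of the 15 and 41 of the 71 were still lost, and with normexp background correction 11 and 44. The lists by role differed in how many members it took, 6 of 15 granule genes, 3 of 19 vesicle release genes, 5 of 23 adhesion and scaffold genes, 1 of 22 channels and receptors, and none of 11 cytoskeletal and 17 transcription and RNA genes.

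**Figure D2:**
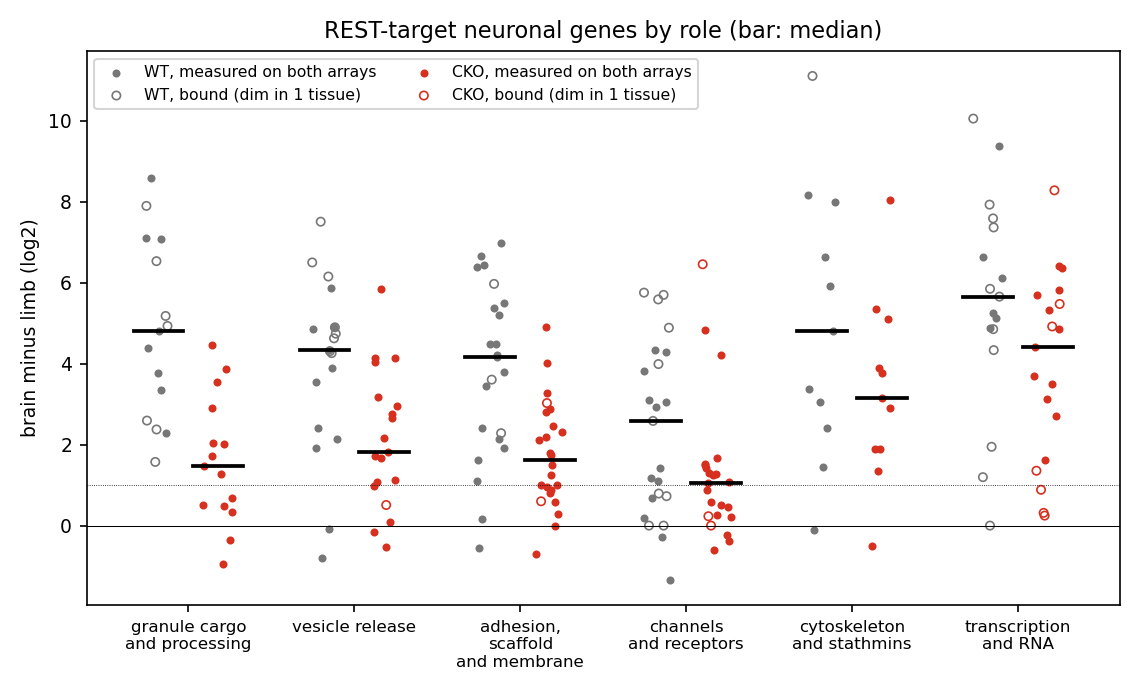
Brain minus limb difference (log2) of each REST-target gene, grouped by role, for WT (grey) and CKO (red); open symbols are bounds and bars are medians. The granule median is 4.80 in WT and 1.47 in CKO, while the transcription and RNA median is 5.65 in WT and 4.40 in CKO.

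Secretory granule cargo and its processing enzymes held the most losses. All 15 granule genes were at least 2-fold higher in WT brain and 9 in CKO brain. Chga, chromogranin A, the core protein of dense granules, stood at -3.67 in WT limb and 3.62 in CKO limb, against 3.43 in WT brain and 3.96 in CKO brain. The WT limb array stood far below the other 3, and the difference was 137-fold in WT and 1.27-fold in CKO, with the CKO limb at 79.0% of the CKO brain. Scg3, a granule protein that binds chromogranin A, gave -3.02, 4.04, 4.05 and 4.53 in the same order, and 135-fold became 1.41-fold. Scg2, secretogranin II, was at least 30.5-fold higher in WT brain. In CKO it stood at 1.42 in limb and 0.47 in brain, so the limb was 1.93-fold above the brain. Pcsk1 and Pcsk2, the convertases that cut prohormones in granules, differed 1.43-fold and 1.59-fold in CKO, after at least 5.18-fold and 13.7-fold in WT. Ptprn, a granule membrane protein, was at least 6.04-fold higher in WT brain and 1.28-fold higher in CKO limb than in CKO brain.

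Other granule genes kept the brain above the limb. Chgb, chromogranin B, stood at -4.73 in WT limb and 2.63 in CKO limb, against 3.84 in WT brain and 4.35 in CKO brain, so 381-fold became 3.29-fold. Scg5, the chaperone of PCSK2, went from at least 238-fold to 7.47-fold. Pcsk1n, which inhibits PCSK1, was 21.0-fold higher in WT brain and 22.1-fold in CKO brain, with -0.26 in WT limb and -0.28 in CKO limb. Cargo of the same granules thus ranged from 1.27-fold to 22.1-fold higher in CKO brain, with Scg2 and Ptprn higher in limb.

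Vesicle release genes held the brain higher in 14 of 19 cases, with a median of 1.82 in CKO and 4.34 in WT. Unc13a, which primes synaptic vesicles, stood at -5.85 in WT limb and -0.11 in CKO limb, against -0.69 in WT brain and -0.63 in CKO brain. The CKO limb was 1.43-fold above the CKO brain, where WT brain had been at least 19.2-fold above WT limb. Stx1a, a SNARE protein of the presynaptic membrane, was 4.42-fold higher in WT brain and 1.07-fold in CKO brain, and Bsn, of the active zone, went from at least 29.8-fold to 1.96-fold. Snap25, the SNARE partner of syntaxin, was narrowed from at least 182-fold to 3.17-fold, Syp, synaptophysin, from at least 90.5-fold to 4.51-fold, and Cplx1, complexin, from at least 71.1-fold to 2.20-fold. Syt1, the calcium sensor of fast release, was 58.0-fold higher in WT brain and 57.9-fold in CKO brain. Rab3a, Sv2a and Snph also stayed above 16-fold in CKO. Syn1, synapsin I, stood by its brightest probe at 4.54 and 4.39 in limb and at 4.47 and 4.23 in brain, WT before CKO, and so separated neither pair.

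Adhesion, scaffold and membrane genes gave the next losses. Sez6l2, a neuronal membrane protein, stood at -1.98 in WT limb and 3.66 in CKO limb, against 3.40 in WT brain and 3.66 in CKO brain. The 3 upper values are nearly alike, and 41.5-fold became 1.0-fold. Rundc3a, a neuronal RUN-domain protein, went from 126-fold to 1.99-fold and Gdap1l1 from 22.4-fold to 2.0-fold, both just inside the limit, with Cplx2 at 2.12-fold and Cacna1b, a presynaptic calcium channel, at 2.07-fold just outside it. Mapk8ip2, a scaffold of the JNK pathway, went from 37.0-fold to 1.84-fold, and Nefh, the heavy neurofilament, from at least 12.2-fold to 1.95-fold. Gdap1 and Gprin1 were narrowed, from 87.1-fold to 2.37-fold and from 101-fold to 3.36-fold. Kif1a, a motor for vesicle precursors, kept 16.3-fold of 18.5-fold, and Ina, alpha-internexin, 29.7-fold of 84.0-fold.

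Channels and receptors had the smallest median of the 6 REST-target lists in both genotypes, 2.58 in WT and 1.05 in CKO, with 12 of 23 called in CKO brain. Chrnb2, a nicotinic receptor subunit, was the one lost, from at least 51.9-fold to 1.83-fold, with -7.15 in WT limb and 0.13 in CKO limb. Hcn3, a pacemaker channel, was narrowed from 20.2-fold to 2.85-fold, and Kcnc1, a potassium channel, from at least 15.9-fold to 2.80-fold. Scn2a, a neuronal sodium channel, was 19.5-fold higher in WT brain and 28.5-fold in CKO brain. Grm5, a glutamate receptor, was not well above background on either limb array and stood at least 87.7-fold higher in CKO brain.

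No cytoskeletal or nuclear REST target was lost by the rule, and 4 of 11 cytoskeletal and 8 of 17 transcription and RNA genes were narrowed. Stmn3, a stathmin that binds tubulin, stood at -5.62 in WT limb and 4.42 in CKO limb, against 6.16 in WT brain and 6.31 in CKO brain. This was the widest shift of any gene still called in brain, from at least 2203-fold to 3.71-fold. Tubb3, the neuronal tubulin, was 256-fold higher in WT brain and 40.7-fold in CKO brain, and Stmn2 98.6-fold and 14.9-fold. Celf3, a splicing regulator, went from 669-fold to 6.58-fold, and Elavl3, a neuronal RNA-binding protein, from at least 1061-fold to 40.3-fold. Myt1l was narrowed, from at least 243-fold to 84.4-fold, with -6.86 in WT limb and -3.71 in CKO limb. Insm1 and Lhx5 stayed 82.3-fold and at least 311-fold higher in CKO brain. Insm1 was dim in WT limb, at -7.25, and Lhx5 on both limb arrays.

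Of the 71 genes that lost their separation from the brain side, 58 were at least 2-fold higher in CKO limb than in WT limb, and all 15 REST-target genes were among these. Their median level in CKO limb was -0.08 and their median CKO difference 0.67, after a median limb gain of 3.20. In 8 of the 58 the CKO limb stood above the CKO brain. Lrp11, a membrane protein of the LDL receptor family, was one of them, with -2.34 in WT limb and 3.82 in CKO limb, against 2.09 in WT brain and 3.14 in CKO brain. Lrp11 was thus 21.6-fold higher in WT brain and 1.60-fold higher in CKO limb. Galnt9, a glycosyltransferase, was 11.1-fold higher in WT brain and 1.65-fold higher in CKO limb. Celf6 (from at least 116-fold to 1.78-fold), Nrsn1 (38.9-fold to 1.33-fold), Tmem145 (41.3-fold to 1.35-fold), Phf21b (39.0-fold to 1.61-fold), Olfm3 (37.7-fold to 1.77-fold) and Tmem179 (31.8-fold to 1.66-fold) followed the same course with the brain a little above the limb. St8sia3, a sialyltransferase, went from at least 126-fold to 1.67-fold.

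**Figure D3:**
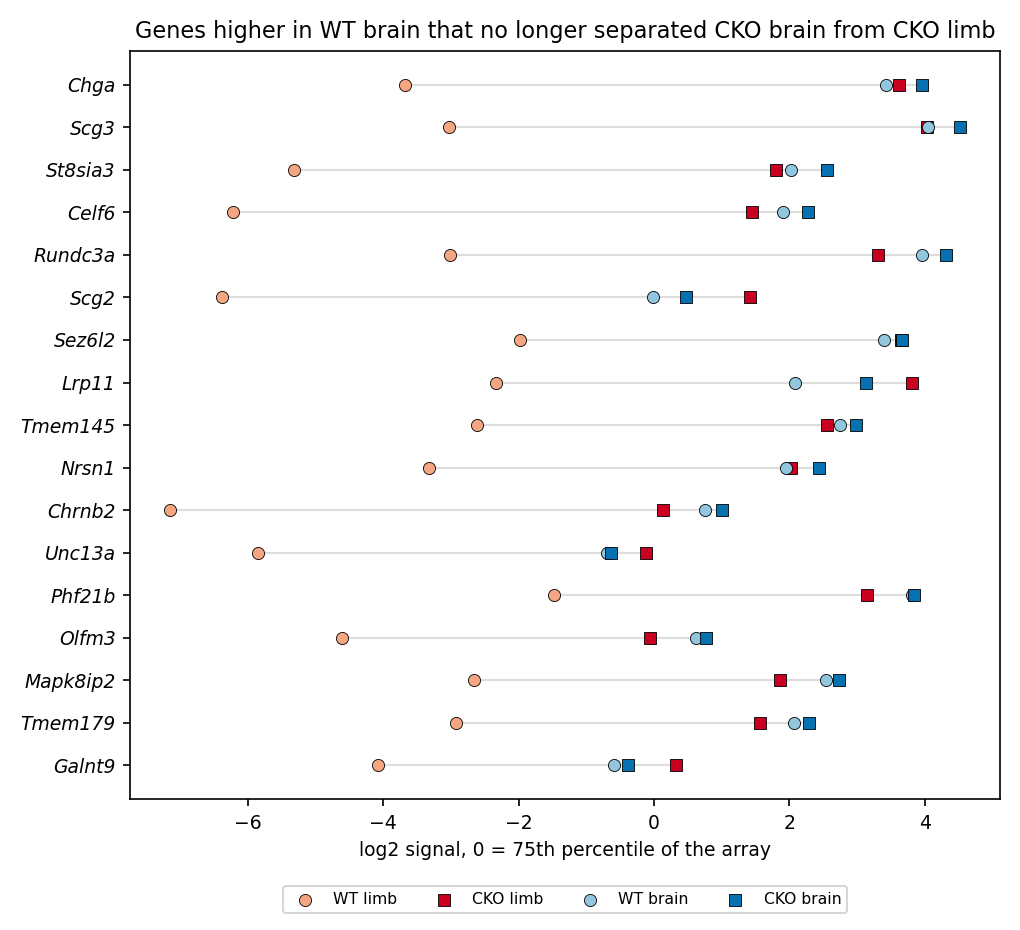
Log2 signal (x axis, 0 at the array's 75th percentile) on the 4 arrays for 17 genes that separated WT brain from WT limb at least 4-fold and CKO brain from CKO limb by less than 2-fold. The WT limb value (pale circle) lies alone at the left in every row, and the other 3 arrays lie together. Some of these WT limb values are not well above background. Only lost genes at least 2-fold higher in CKO limb than in WT limb were drawn, so this pattern follows from the choice of genes. The 13 lost genes with a lower CKO brain are not shown.

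The remaining 13 of the 71 lost the separation with the CKO brain array at least 2-fold below the WT brain array. Their brain level differed by a median of -3.22 between CKO and WT, and none is in a REST-target list. Sensory ganglion genes were lower on the CKO brain array too, with Isl2 at 0.70 in WT brain and -0.99 in CKO brain, P2rx3 at -0.71 and -2.76, and Avil at -2.51 and -4.56. The summed linear signal of the 18 sensory ganglion genes, in units of each array's 75th percentile, was 14.3 in WT brain and 11.4 in CKO brain. Their part in the result was not tested. Several of the 13, among them AK040256 (-0.09 in WT brain and -4.70 in CKO brain) and Spata17 (-1.44 and -5.88), were brighter in WT brain than on the other 3 arrays. Only 21 of the 71 genes had a further detected probe. In 14 of those genes it moved the same way by at least 1.5-fold, taking the probe that moved most that way if there were several.

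A wider group kept the call and lost part of the distance. Of the 2475 genes called in brain in both pairs, 214 were narrowed, with a CKO difference measured and at least 2-fold smaller than in WT, and 16 were widened. In 200 of the 214 the CKO limb was at least 2-fold above the WT limb, and 41 of the 214 are in the REST-target lists. Outside those lists, Ap3b2, a neuronal subunit of the AP-3 coat, stood at -6.95 in WT limb and 2.84 in CKO limb, against 3.81 in WT brain and 4.13 in CKO brain, from at least 434-fold to 2.45-fold. Ncan, neurocan, a proteoglycan of brain matrix, went from 536-fold to 13.4-fold. Svop, a synaptic vesicle protein, went from at least 256-fold to 6.63-fold. Of 30 pan-neuronal markers, 29 stayed higher in brain and 6 were narrowed, among them Crmp1 from 57.9-fold to 6.22-fold. Thy1 was the exception, higher in limb in both pairs. The 16 widened genes were mostly lower in CKO limb, 14 of them by at least 2-fold, and Dmrta2, a forebrain factor, went from 6.12-fold to 60.5-fold with -1.91 in WT limb and -5.47 in CKO limb.

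The RE1 core was searched in promoters, since the narrowed and lost genes could be compared there with the rest. Windows ran from 250 bases before to 50 after each RefSeq gene start on GRCm38.p6. The search took the letters AGCACC and GGACAG with any 2 bases between them, on both strands. Exact matches stood in 16 of 27025 promoters (0.0592%) and matches with up to 1 mismatch in 111 (0.411%). Of the 153 narrowed brain genes with a promoter in the table, 7 had an exact match (4.58%) and 13 a match with up to 1 mismatch (8.5%). The brain genes that were not narrowed had 1 exact match in 1553 (0.0644%) and 14 with up to 1 mismatch (0.901%). Of the 43 lost genes with a higher CKO limb, none had an exact match and 2, Celsr3 and Tmem179, had 1 mismatch (4.65%). Genes kept in limb gave 0 exact matches in 1811 and genes under 2-fold in both pairs 3 in 7286 (0.0412%). A match is a description of letters, not a bound site, and RE1 elements outside this window were not searched.

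The windows below show the matches in capitals, read 5′ to 3′ on the gene's strand, for 5 narrowed genes, 1 gene that was not narrowed (Robo2) and both lost genes. Capitals starting with AG give the match on the gene's strand, and those starting with CT its reverse complement. The capitals of Celsr3 and Tmem179 differ from the core by 1 base each, and the others are exact.
Gria2, chr3:80802972-80803025, minus strand: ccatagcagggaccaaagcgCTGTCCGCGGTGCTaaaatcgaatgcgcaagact
Gad2, chr2:22622144-22622197, plus strand: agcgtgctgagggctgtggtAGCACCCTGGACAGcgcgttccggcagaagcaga
Hrh3, chr2:180104557-180104610, minus strand: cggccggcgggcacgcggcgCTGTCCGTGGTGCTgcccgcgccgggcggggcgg
Scamp5, chr9:57468178-57468231, minus strand: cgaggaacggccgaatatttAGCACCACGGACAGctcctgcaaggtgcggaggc
Fbll1, chr11:35799039-35799092, minus strand: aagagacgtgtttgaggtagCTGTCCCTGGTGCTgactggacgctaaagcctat
Robo2, chr16:75447336-75447389, minus strand: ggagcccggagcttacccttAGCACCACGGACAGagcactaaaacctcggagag
Celsr3, chr9:108825901-108825954, plus strand: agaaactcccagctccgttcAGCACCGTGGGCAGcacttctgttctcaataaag
Tmem179, chr12:112511230-112511283, minus strand: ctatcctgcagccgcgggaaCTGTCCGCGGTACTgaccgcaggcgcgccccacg

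The genes behind these windows showed different remaining differences. Gria2, an AMPA receptor subunit, stood at -1.28 in WT limb and 1.15 in CKO limb, against 2.54 in WT brain and 2.58 in CKO brain, so 14.2-fold became 2.69-fold. Gad2, the other enzyme that makes GABA, went from at least 136-fold to 36.1-fold, Hrh3, the histamine H3 receptor, from at least 31-fold to 9.06-fold, and Fbll1 from 217-fold to 7.72-fold. Scamp5, a secretory membrane protein, went from 5.83-fold to 2.53-fold. Robo2, an axon guidance receptor, was 3.63-fold higher in WT brain and 3.35-fold in CKO brain, with -2.59 in WT limb and -2.67 in CKO limb. Celsr3, a cadherin that guides axon tracts, went from 10.2-fold to 1.47-fold.

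Cartilage genes lost their separation from the opposite side. Of 54 genes at least 4-fold higher in WT limb and under 2-fold different in CKO (0.297% of genes compared), 9 were among the 21 cartilage genes compared in both pairs. With normexp background correction 12 of the 54 were still lost, 8 of them cartilage genes. The cartilage median was -2.91 in WT and -0.22 in CKO. In WT 16 of 21 detected cartilage genes were called in limb and 2 in brain, and in CKO 5 of 23 in limb and 4 in brain. Col9a1, a fibril-associated collagen of cartilage, stood at 0.45 in WT limb and 1.14 in CKO limb, against -4.20 in WT brain and 0.87 in CKO brain, and 25.2-fold became 1.21-fold. Acan, aggrecan, the main cartilage proteoglycan, gave -0.73, -0.97, -4.86 and -0.81 in the same order, and 17.5-fold became 1.12-fold. The WT brain array was the low one in both, and both limb arrays lay close together. Cnmd, chondromodulin, Cytl1, Snorc, Col11a1 and Col11a2 followed, along with Hapln1 and Matn4, which were dim in WT brain. The 3 chondrocyte transcription factors did not move with them: Sox9 stood at 2.02 in CKO brain, Sox5 at -0.04 and Sox6 at 0.67, against 2.0, 0.21 and 0.83 in WT brain. They do not read cartilage alone: Sox5 was 6.48-fold higher in brain than in limb in WT and 5.46-fold in CKO.

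Values of other tissues moved on the CKO brain array along with cartilage. The summed linear signal of the 24 cartilage genes was 13.3 in WT brain and 32.7 in CKO brain, beside 43.2 in WT limb and 41.2 in CKO limb. Oc90, otoconin of the inner ear, stood at -2.89 in WT limb and -4.21 in CKO limb, against -4.26 in WT brain and 2.46 in CKO brain, so it was 101-fold higher in CKO brain than in CKO limb. Otor, a secreted protein of cochlear cartilage, stood at -3.17 in WT brain and -0.35 in CKO brain. Muscle genes stayed far below the limb, with a summed signal of 8.49 in WT brain and 9.35 in CKO brain against 643 in CKO limb, but their median level was -4.29 in WT brain and -3.33 in CKO brain, and 21 and 27 of the 32 were well above background there. Between the brain arrays, Myl1 was 4.77-fold and Myh3 2.99-fold higher in CKO, and their limb excess was 2030-fold and 1454-fold in WT. The part of inner ear or cartilage tissue in the result was not tested.

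**Figure D4:**
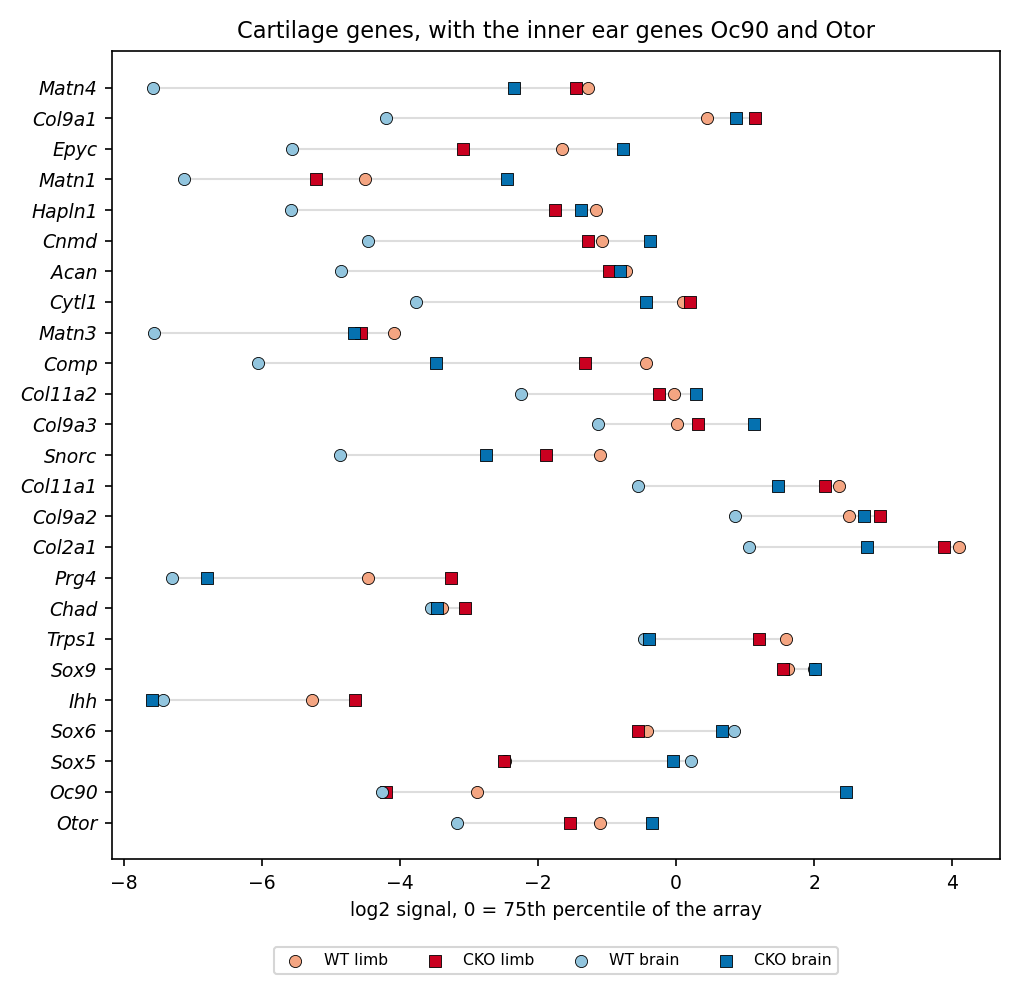
Log2 signal (x axis, 0 at the array's 75th percentile) of the cartilage genes on the 4 arrays, ordered by CKO brain minus WT brain, with Oc90 and Otor in the lowest rows. From Matn4 down to Col2a1 the WT brain value (pale blue circle) lies at the left. The CKO brain value (blue square) lies nearer the limb values or, as for Epyc and Matn1, above them. Sox9, Sox6 and Sox5 show little distance between the brain arrays.

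Another 28 of the 54 limb-side losses had a CKO limb array at least 2-fold lower than WT limb, and no cartilage gene was among them. C130026L21Rik stood at 0.34 in WT limb and -5.13 in CKO limb, against -4.29 in WT brain and -4.42 in CKO brain. Nudt12, a nucleotide hydrolase, gave -1.58, -4.80, -4.86 and -4.83, and Unc5d, a netrin receptor, -1.18, -4.52, -3.75 and -3.68. Each was bright on the WT limb array alone. Fewer blood genes were called in CKO limb: 2 of 17 erythroid genes, against 14 of 19 in WT limb, and the summed linear signal of the 20 on the list was 1254 in WT limb and 615 in CKO limb, against 506 in WT brain and 481 in CKO brain. Alas2, which starts haem synthesis in red cells, stood at 3.29 in WT limb and 1.49 in CKO limb. Not all members were lower in CKO limb: Epor, the erythropoietin receptor, was 2.76-fold and Klf1 1.5-fold higher there than in WT limb, and the median level of the list was -0.98 in WT limb and -0.86 in CKO limb. In brain that median was -1.56 in WT and -1.02 in CKO, though the summed signal was a little lower in CKO. Whether the amount of blood in either CKO sample plays a part was not tested.

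Few genes changed direction or gained a separation. Reversed were 20 genes that were higher in WT brain (0.11% of genes compared) and 9 that were higher in WT limb (0.0496%). With normexp background correction these counts were 4 and 3, and the counts of gained genes below were 2 and 4. Entpd2, an enzyme that cuts extracellular ATP, stood at -3.20 in WT limb and 0.46 in CKO limb, against -1.80 in WT brain and -1.48 in CKO brain, so 2.65-fold higher in WT brain became 3.83-fold higher in CKO limb. Of the 20, 15 were at least 2-fold lower in CKO brain than in WT brain, Tnfrsf10b and Psmb8 among them. Gained were 6 genes in brain (0.033%) and 10 in limb (0.0551%). In limb, Gfra3, a receptor for artemin, went from 1.8-fold to 6.68-fold, with -0.33 in WT brain and -2.26 in CKO brain.

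Most genes of the REST and corepressor list separated the tissues alike in both genotypes. Of its 19 genes, Rest and Srrm4 included, 4 were higher in brain and 5 in limb in both pairs. Rcor1 and Sin3a, scaffolds of its repressor complexes, differed 1.84-fold toward limb and 1.04-fold in CKO. Besides Rest itself, only Srrm4, the splicing factor that makes the neuronal REST4 form, had a narrowed difference. Srrm4 stood at -3.12 in WT limb and -0.75 in CKO limb, against 1.84 in WT brain and 1.71 in CKO brain. Its brain excess was 31.2-fold in WT and 5.52-fold in CKO.

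The remaining lists described cells that brain and limb share or that only limb holds. Of 23 epidermis genes, 16 were called in CKO limb and 17 in WT limb, with medians of -2.77 and -4.07. Of 19 bone and joint genes, 15 were called in CKO limb, and Col1a1, the main bone collagen, was 22-fold higher there and 37.3-fold in WT limb. Endothelial genes were called in limb for 7 of 16 in CKO and 11 of 16 in WT, and macrophage genes for 6 of 16 in CKO and 14 of 16 in WT. Pecam1, an adhesion protein of endothelium, was 2.67-fold higher in CKO limb and 2.92-fold in WT limb, so many of these genes lay near the 2-fold limit. Of 20 housekeeping genes, 2 were called, B2m and Gusb, both in limb in both pairs, and of 20 cell cycle genes 1, Birc5, survivin, at 2.25-fold in CKO and 2.31-fold in WT limb.

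**Figure D5:**
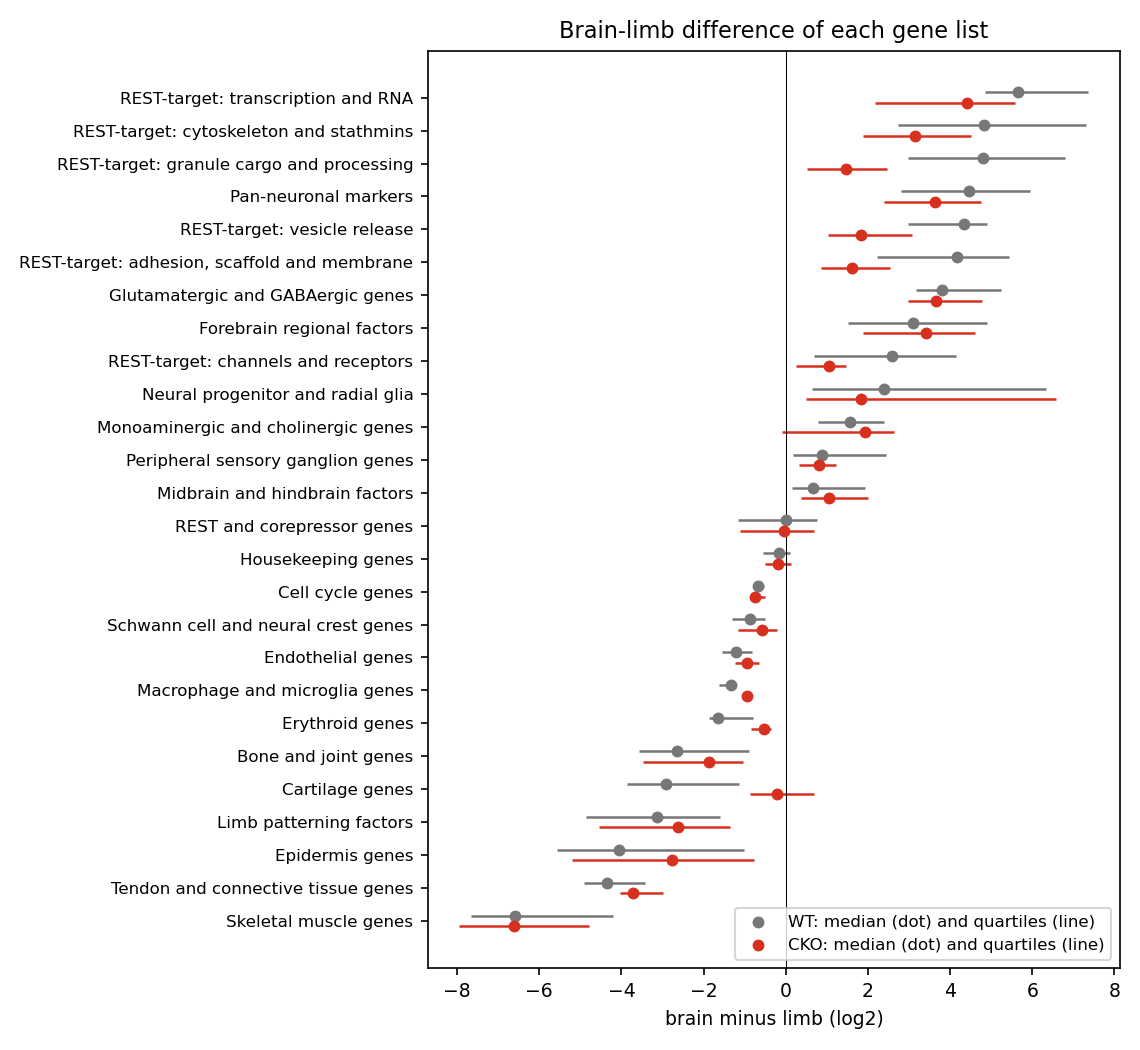
Median (dot) and quartiles (line) of the brain minus limb difference (log2) of each gene list, WT in grey and CKO in red, ordered by the WT median. The granule, vesicle and adhesion lists of REST targets and the cartilage list show the widest distance between the medians, while muscle, forebrain, housekeeping and cell cycle lists show little.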

How the data were processed

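Gene expression was measured on 4 single-colour Agilent arrays, 1 for each tissue and genotype. The authors deposited linear intensities made with Agilent Feature Extraction (version 9.5.3.1 by the submitters' processing notes) and background-subtracted within each array, per the file headers. From these intensities log2 values were computed, control spots were left out, and the 75th percentile of each array was subtracted. The spots of each of 41174 probes were averaged, and 10 probes flagged as outliers were left out. A gene was read by the probe that was brightest on average. Names came from accessions (26933 probes), current symbols (5570), synonyms (894) or the file (7777). The deposited raw intensities served the normexp alternative alone (limma 3.58.1, R 4.3.3, offset 50).

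A gene entered a comparison if well above background on at least 1 of its arrays. If 1 array of the pair was dim, the difference is a bound, taken from the bright array's value to the higher of the dim array's own value and its lowest signal well above background. Calls are by size, 2-fold, with no test. Kept is 2-fold the same way in both pairs, lost is 4-fold in WT and under 2-fold in CKO, reversed is 2-fold in opposite directions, and gained is under 2-fold in WT and 4-fold in CKO. The members and lists were chosen with earlier results of these data known. Of 576 list genes, 570 were found. The rule for named genes took the 10 largest measured differences and 3 largest bounds in each direction, up to 4 members a list by difference and 4 by shift, and up to 12 a class. Other names were chosen after their values were seen: Pcsk1, Pcsk2, Ptprn, Stx1a, Bsn, Gdap1l1, Nefh, Cplx2, Cacna1b, Syn1, Ap3b2, Ncan, Svop, Thy1, Celsr3, AK040256, Spata17, Sox9, Sox5, Sox6 and those with a printed promoter. Promoters were taken from RefSeq. The classes were checked on simulated data. Calculations used Python 3.11.15, numpy 2.4.6 and pandas 2.3.3. Alternatives changed the background correction, normalization, centre, probe choice, dim-probe filter, source of values and fold. Results of some genes are not reported here.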

Additional observations from a re-analysis of the deposited data

Results flagged for a closer look

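The WT and CKO brain minus limb differences pointed opposite ways, by at least 2-fold each, for 13 genes or transcripts measured on all 4 arrays and named in the text. With 1 difference a genotype, none of these contrasts was tested. The shift, WT minus CKO difference on the log2 scale, was -8.03 for Oc90, by far the widest, with the CKO brain array at 2.46 and the other 3 at -2.89 or lower. It was -4.06 for Prap1, -3.54 for ENSMUST00000088198, -3.27 for Otor, -3.19 for Meltf and -2.76 for ENSMUST00000085076, all higher in WT limb and in CKO brain. Of these, Otor, Meltf, ENSMUST00000085076 and Prap1 were higher on the CKO brain array than on the WT brain array by over 2-fold, and Prap1 and ENSMUST00000088198 were lower on the CKO limb array, at -5.10 against -2.20 in WT limb and at -5.45 against -1.51. In the other direction the shift was 4.26 for Tnfrsf10b, 4.12 for AK082597, 3.34 for Entpd2, 2.77 for Trim6, 2.72 for Psmb8, 2.29 for Kif16b and 2.24 for Gm5797, whose CKO difference changes direction, from -1.22 to 0.63, with the mean of all its probes. Entpd2 and Gm5797 were higher on the CKO limb array, the other 5 lower on the CKO brain array. Only 7 of the 20 genes reversed from brain had a further detected probe. In 2 of those genes it moved the same way by at least 1.5-fold, taking the probe that moved most that way if there were several.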

How the results depend on the processing

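No paired analysis was possible because each group has 1 array and the labels give no replicate numbers that pair samples, and no replicate could be left out. Counts of genes kept, and of genes called at 2-fold in each tissue, stayed within 1.5 times the reported ones under all 7 alternatives that kept the 2-fold limit. At 3-fold the calls were 1714 in brain and 1855 in limb for CKO, and 1815 in brain and 2152 in limb for WT. The small classes changed with the background correction and the filter on dim probes. With normexp background correction 15 genes were lost from limb, 12 of them among the 54 reported, 2 gained in brain, 4 gained in limb, 4 reversed from brain and 3 reversed from limb, and the REST-target median was 1.48 in place of 1.72. With both arrays of a pair required above background, 41 were lost from brain, 3 gained in brain and 7 reversed from brain. With no filter, which also shifts the median difference of all genes to -0.24, 187 were lost from brain, 248 lost from limb, 166 gained in brain, 218 gained in limb, 66 reversed from brain and 45 reversed from limb. The cause was not tested. Of the 58 genes lost from brain with a higher CKO limb, 39 were still lost with normexp, 37 with both arrays required, 48 with the mean of all probes, 52 with another centre, 57 with quantile normalization and 58 with the authors' deposited series table. With the mean of all its probes Gm5797 changed direction, to 0.63 from -1.22. A bound is set by the lowest signal read as above background on the dim array.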

Other observations

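Some epithelial and matrix genes also stood closer to the limb on the CKO brain array. They were picked after their values were seen and are given as values only; Epcam is in the epidermis list, the others in none. Of the 2761 genes called in limb in both pairs, 162 were narrowed, and in 81 of these the CKO brain was at least 2-fold above the WT brain. Cldn4, a tight junction protein, stood at -7.63 in WT brain and -2.81 in CKO brain, with -1.11 in WT limb and -1.58 in CKO limb. Cldn7 stood at -6.19 in WT brain and -2.59 in CKO brain, and Epcam, an epithelial adhesion protein, at -5.22 and -3.01. Smoc2, a matrix protein, stood at -4.76 and -1.91, and Mgp, which restrains calcification of cartilage, at -1.87 and 0.39. In each of these the limb arrays lay close together and above both brain arrays, and Cldn4 and Cldn7 were not well above background in WT brain.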
